A study of Mus musculus with 6 samples.

Results

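The genes described here are Csf1, Csf2, Csf3, Il34, Kitl and Kit, the colony-stimulating factors and stem cell factor together with the stem cell factor receptor, taken by symbol as 6 of the 23337 genes in the count tables. They were measured by RNA sequencing in stromal fibroblast cultures of the mouse mammary gland, and the tables hold all 6, of which 4 passed a filter on low counts. The Sharpin-cpdm cultures, 3 in number, came from cpdm/cpdm mice, which lack SHARPIN, and the 3 wild-type cultures they are set against came from wt/wt mice. All animals were C57BL/KaLawRij mice aged 7 weeks. Each culture pooled the glands of 3 mice, was started by collagenase digestion and differential centrifugation, and was grown to confluence in serum at passage 0, so every value is an average over pooled animals and over whatever cells attached. The cpdm allele is a spontaneous loss-of-function mutation of Sharpin, part of the enzyme complex LUBAC, which builds linear ubiquitin chains and feeds NF-kappaB signalling, and it is carried by all cells of the animal.

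Colony-stimulating factors are secreted or membrane-bound cytokines through which stromal cells keep blood-derived cells alive and make them divide and mature. CSF1 and IL-34 are unrelated in sequence but bind the same receptor, CSF1R, on macrophages, and CSF1 is needed for the macrophages that surround growing mammary ducts. CSF2 (GM-CSF) and CSF3 (G-CSF) act on granulocytes and macrophages, and fibroblasts are known to make them when stimulated by inflammatory cytokines. Stem cell factor, encoded by Kitl, is the ligand of the receptor tyrosine kinase KIT, which is known from mast cells, melanocytes, blood progenitors and luminal progenitors of the mammary epithelium.

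Gene counts per library came to between 13570649 and 15656196, so 1 count is worth between 0.0639 and 0.0737 CPM. CPM, the scale of the levels given here, is the count per megaread assigned to genes. Levels are listed for cultures 1, 2 and 3 in that order. Sharpin had 10.5, 9.13 and 9.5 CPM in the Sharpin-cpdm cultures, against 24.5, 25.2 and 31.2 CPM in the wild-type cultures, in the direction of the labels. Genotypes were compared with edgeR's quasi-likelihood test, and without other terms it called 0 of 13442 tested genes at an adjusted p under 0.05 (0% of them), with 307 genes (2.28%) at an unadjusted p under 0.05, while DESeq2 called 10 (0.0744%). Same-numbered libraries deviated together, and with the replicate number as a block edgeR's test called 337 genes (2.51%), 284 lower and 53 higher (0.394%) in Sharpin-cpdm. With the block, 2327 genes (17.3%) had an unadjusted p under 0.05 in edgeR's test. Where such genes are counted for a list below, the count is to be read beside that share. A gene is said below to have risen or fallen only where that blocked test called it. The blocked calls numbered 653 without pair 1, 128 without pair 2 and 44 without pair 3.

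Of the 4 tested genes, Kit fell in Sharpin-cpdm cultures and the other 3 did not pass, beside 2.11% of all tested genes that fell. Kit, at 75574916 to 75656722 on the plus strand of chromosome 5 (mm10, GENCODE ENSMUSG00000005672.12), had 13.0, 13.6 and 29.3 CPM in the Sharpin-cpdm cultures, against 23.3, 23.6 and 58.6 CPM in the wild-type cultures. Pair 3 was high in both genotypes and the groups overlapped, as did those of the other 3 tested members, whereas 2.59% of all tested genes had groups that did not overlap with Sharpin-cpdm lower. Within each pair the Sharpin-cpdm library was the lower one. The ratios of Sharpin-cpdm to wild type were 0.560, 0.574 and 0.50 in pairs 1 to 3, on 177, 187 and 437 counts in Sharpin-cpdm and 318, 370 and 833 counts in wild type. The log2 fold change was -0.91 ± 0.08 (SE, n = 3 pairs; adjusted p 0.00617, blocked edgeR test). Without the block it was -0.93 ± 0.47 (adjusted p 0.9999, edgeR). With pair 3 left out, the blocked value was -0.82 ± 0.10 and no longer passed (adjusted p 0.0584, blocked edgeR test). In the fit without the block, leaving out wild-type library 3 gave -0.35 ± 0.36. Of all tested genes, 1.32% had a log2 fold change as low as that of Kit or lower. In cultures of mixed cells, fewer Kit-expressing cells and less Kit RNA per cell cannot be told apart.

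**Figure D1:**
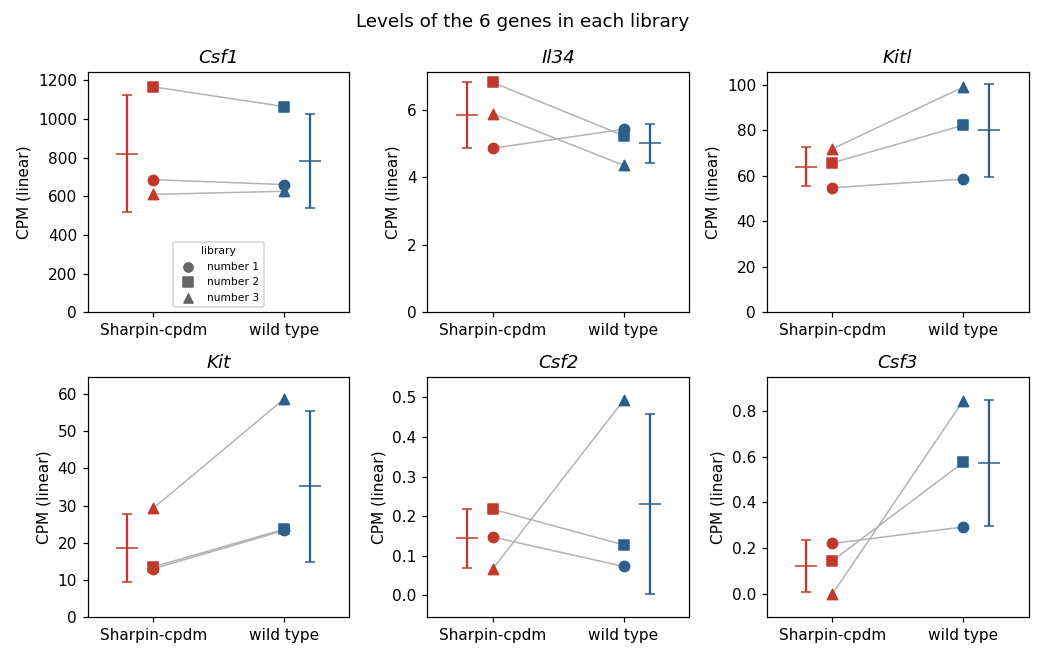
Level of each of the 6 genes in CPM on linear axes, with 1 point per library, Sharpin-cpdm left of wild type, grey lines joining same-numbered libraries, and bars giving the mean ± SD of 3 libraries. Kit and Kitl lie lower in the Sharpin-cpdm library of every pair, Csf1 follows the pair (1166 and 1064 CPM in number 2), and Csf2 and Csf3 stay under 1 CPM.

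Kitl, which encodes the KIT ligand and lies at 100015630 to 100100416 on the plus strand of chromosome 10, had a smaller difference in the same direction that did not pass. It had 54.7, 65.6 and 71.8 CPM in the Sharpin-cpdm cultures, against 58.5, 82.1 and 98.9 CPM in the wild-type cultures. The lowest and the highest culture were number 1 and number 3 in both genotypes, and the Sharpin-cpdm library was the lower one of each pair, with ratios of 0.935, 0.799 and 0.726. The groups overlapped, and a level lower in all 3 pairs was found for 18.5% of all tested genes. The log2 fold change was -0.31 ± 0.08 (adjusted p 0.116, blocked edgeR test), and -0.33 ± 0.21 without the block. Without pair 1, where the ratio was nearest to 1, the blocked value was -0.41 ± 0.07 and passed (adjusted p 0.0148, blocked edgeR test). Whether Kit and Kitl differ in the size of their fold change was not tested.

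The bases upstream of the transcript starts of Kit and Kitl are shown because both the receptor and its ligand were lower in every Sharpin-cpdm library of a pair, and those of Csf1 because it was the most abundant of the 6 and did not follow the genotype. They are the 250 bases before the RefSeq start (GRCm38.p6, strand of the gene), from chr5:75574737-75574986 on the plus strand for Kit, chr10:100015571-100015820 on the plus strand for Kitl and chr3:107760470-107760719 on the minus strand for Csf1. For Kit and Kitl this start differs from the GENCODE gene start given above, and Kit has 2 starts in the RefSeq table, of which 1 is shown. Capitals mark the GC box GGGCGG on either strand in Kit and Kitl, and the NF-kappaB consensus in Csf1.
Kit: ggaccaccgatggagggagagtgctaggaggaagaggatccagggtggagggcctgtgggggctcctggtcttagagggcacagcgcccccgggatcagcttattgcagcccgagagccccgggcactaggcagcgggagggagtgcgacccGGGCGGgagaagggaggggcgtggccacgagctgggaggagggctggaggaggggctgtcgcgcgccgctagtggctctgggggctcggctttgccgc
Kitl: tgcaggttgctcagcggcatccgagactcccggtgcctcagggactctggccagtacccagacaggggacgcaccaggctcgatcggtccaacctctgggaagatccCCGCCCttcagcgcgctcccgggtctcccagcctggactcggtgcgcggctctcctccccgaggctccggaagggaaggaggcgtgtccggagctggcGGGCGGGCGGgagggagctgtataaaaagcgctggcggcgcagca
Csf1: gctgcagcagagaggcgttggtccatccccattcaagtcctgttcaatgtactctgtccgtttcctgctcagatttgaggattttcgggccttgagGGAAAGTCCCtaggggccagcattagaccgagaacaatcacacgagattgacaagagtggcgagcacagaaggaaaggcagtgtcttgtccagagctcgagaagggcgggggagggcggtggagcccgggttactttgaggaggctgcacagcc
The Kit window held 1 GC box, beginning 98 bases before the start, and the Kitl window held 3, beginning 143, 45 and 41 bases before it, the last 2 overlapping each other. Csf1 has 2 GC boxes as well, beginning at 51 and 41 bases, which are left in lower case, and 32.9% of the 27025 promoter windows of the same length hold at least 1. The NF-kappaB consensus was found in Csf1, beginning 154 bases before the start, and in Kitl, beginning at 152 bases and overlapping the farthest GC box there, against 7.01% of all windows. The Kit window held no match to it, to the E-box CANNTG (66.0% of all windows) or to GATA (54.1%). Kitl alone of the 3 had TATAAA, beginning 25 bases before the start, which 13.0% of all windows hold. The Kit and Kitl windows were rich in G and C, at 70.8% and 69.2%, against 56.4% in Csf1 and a median of 52% over all windows. A match is a run of letters and no evidence of binding.

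Csf1, the ligand that macrophages depend on (chromosome 3, 107741048 to 107760469, minus strand), was the most abundant of the 6 and did not follow the genotype. It had 686, 1166 and 610 CPM in the Sharpin-cpdm cultures, against 660, 1064 and 626 CPM in the wild-type cultures. Library 2 was the highest in both genotypes, 1.91 times the lowest Sharpin-cpdm library and 1.70 times the lowest wild-type library, while the ratios of Sharpin-cpdm to wild type within pairs were 1.04, 1.10 and 0.975. The log2 fold change was 0.04 ± 0.05 (adjusted p 0.766, blocked edgeR test). At 802 CPM on average over the 6 libraries, Csf1 had a higher level in CPM than 99.2% of the tested genes. With 34502 counts summed over the Sharpin-cpdm libraries and 34571 over the wild-type libraries, counting error was small beside the spread between libraries.

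Il34, the other CSF1R ligand (chromosome 8, 110741829 to 110805924, minus strand), was measured at 4.86, 6.81 and 5.89 CPM in the Sharpin-cpdm cultures, against 5.42, 5.24 and 4.36 CPM in the wild-type cultures. The Sharpin-cpdm library was the higher one in pairs 2 and 3 and the lower one in pair 1, and the groups overlapped. The log2 fold change of 0.22 ± 0.17 did not pass (adjusted p 0.578, blocked edgeR test), on between 62 and 94 counts per library. A pair of antisense genes, Gm15894 and Gm15895, overlaps Il34 in the annotation, and the library type does not keep strand.

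Csf2 and Csf3, the granulocyte-macrophage and granulocyte colony-stimulating factors, were close to the detection limit in these cultures and were removed by the low-count filter. Csf2 (chromosome 11, 54247271 to 54249667) had 2, 3 and 1 counts in the Sharpin-cpdm cultures, against 1, 2 and 7 counts in the wild-type cultures. These groups overlapped, and no direction can be read from 6 counts in all Sharpin-cpdm libraries against 10 in wild type. The gene Gm12223 lies antisense to Csf2. Csf3 (chromosome 11, 98701263 to 98703629) had 3, 2 and 0 counts in the Sharpin-cpdm cultures, against 4, 9 and 12 counts in the wild-type cultures, or 5 against 25 in all. The 0 in Sharpin-cpdm library 3 allows a level of up to 0.201 CPM at 3 counts, a floor that covers counting error only. The Csf3 groups did not overlap, as was true, in the lower direction, of 2.72% of the 18050 genes with any count. Fitted without the filter, Csf3 had an unadjusted p of 0.0334 (adjusted p 0.9998, edgeR) and, with the block, an adjusted p of 0.319 from edgeR, where 2.78% of those genes were called.

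**Figure D2:**
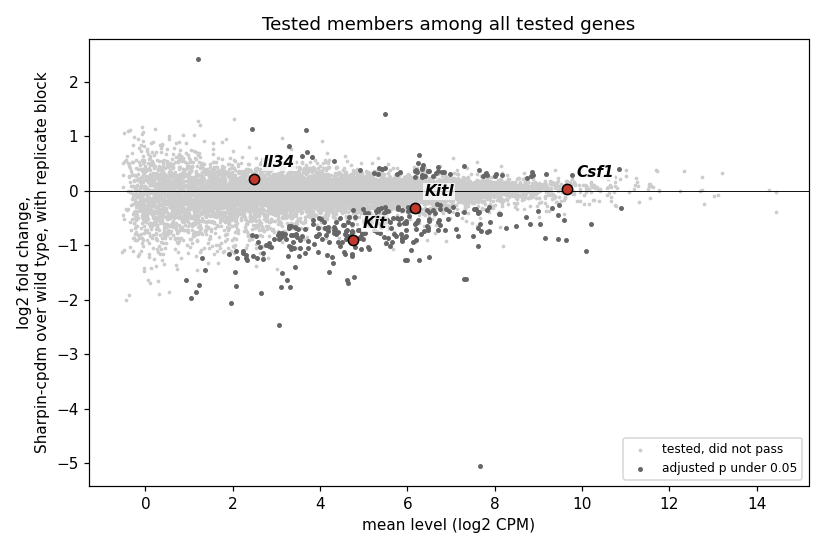
Log2 fold change of Sharpin-cpdm over wild type from edgeR's test with the replicate block against mean level in log2 CPM for 13442 tested genes, in dark grey where the adjusted p is under 0.05, with the 4 tested members in red. Kit lies at -0.91 among the called genes, and Kitl at -0.31, Csf1 at 0.04 and Il34 at 0.22 are not called.

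Levels of different genes can be set side by side only per length, here as RPKM, the CPM divided by the length of all annotated exons in kilobases. On this scale Csf1 averaged 155 RPKM in Sharpin-cpdm and 148 RPKM in wild type, and Kitl 10.8 RPKM in Sharpin-cpdm and 13.5 RPKM in wild type. Kit averaged 2.09 RPKM in Sharpin-cpdm and 3.95 RPKM in wild type, and Il34 2.99 RPKM in Sharpin-cpdm and 2.56 RPKM in wild type. Over single libraries Kit ranged from 1.46 to 6.57 RPKM and Il34 from 2.22 to 3.48 RPKM, so these neighbours did not separate, and neither did Csf3, up to 0.597 RPKM, and Csf2, up to 0.615 RPKM. With the longest annotated transcript as length, Kit averaged 3.55 RPKM in Sharpin-cpdm and 6.71 RPKM in wild type, and Il34 3.26 RPKM in Sharpin-cpdm and 2.79 RPKM in wild type, still with overlapping ranges.

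None of the 7 listed receptors and binding partners of these ligands other than KIT was called by edgeR or DESeq2 with the block, with 1 of the 6 tested, Ptprz1, at an unadjusted p under 0.05 in edgeR. Csf1r, the receptor of CSF1 and IL-34, had 7.88, 18.5 and 10.6 CPM in the Sharpin-cpdm cultures, against 5.94, 25.7 and 13.3 CPM in the wild-type cultures. It was highest in library 2 of both genotypes, where Csf1 was highest as well, and its ratio within pairs went both ways, with a log2 fold change of -0.21 ± 0.17 (adjusted p 0.579, blocked edgeR test). Macrophage markers summed over 17 genes came to 154.5, 414 and 265 CPM in the Sharpin-cpdm cultures, against 88.55, 494 and 217.5 CPM in the wild-type cultures, again with library 2 on top. Of those 17 markers 14 were tested, 0 were called by edgeR with the block (2 at an unadjusted p under 0.05) or by DESeq2 with the block, and the median log2 fold change was -0.04. Lyz2, a lysozyme gene of myeloid cells, made up much of that sum, at 102, 263 and 158 CPM in the Sharpin-cpdm cultures and 46.3, 295 and 118 CPM in the wild-type cultures. The part of macrophages in the Csf1r levels was not tested.

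Alternative partners of IL-34 gave no call either. Ptprz1, a receptor phosphatase reported to bind IL-34, had 6.85, 19.7 and 5.96 CPM in the Sharpin-cpdm cultures, against 5.86, 13.9 and 4.92 CPM in the wild-type cultures. It was higher in the Sharpin-cpdm library of every pair, with a log2 fold change of 0.36 ± 0.12 (adjusted p 0.221, blocked edgeR test). Sdc1, the heparan sulfate proteoglycan syndecan 1, averaged 325 ± 54.9 CPM in Sharpin-cpdm, against 323 ± 82.6 CPM in wild type (SD, n = 3), giving a log2 fold change of 0.01 ± 0.06.

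The GM-CSF receptor is made of the specific chain CSF2RA and a common beta chain, which in mice has the near-identical relative Csf2rb2, specific to interleukin 3. Csf2ra averaged 11.9 ± 1.5 CPM in Sharpin-cpdm, against 12.7 ± 0.990 CPM in wild type. Csf2rb averaged 3.43 ± 1.20 CPM in Sharpin-cpdm, against 4.15 ± 1.63 CPM in wild type, and Csf2rb2 3.29 ± 1.98 CPM in Sharpin-cpdm, against 3.83 ± 1.10 CPM in wild type, both less certain because reads that align to either gene are left out. Their log2 fold changes with the block were -0.10 ± 0.13, -0.28 ± 0.23 and -0.29 ± 0.25, in the order Csf2ra, Csf2rb, Csf2rb2. Csf3r, the G-CSF receptor of neutrophils, had 1 count over the Sharpin-cpdm libraries and 1 over the wild-type libraries, and neutrophil markers summed to at most 0.580 CPM in a Sharpin-cpdm library and 2.11 CPM in a wild-type library, with Elane, Cxcr2 and Retnlg at 0 in all of them.

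**Figure D3:**
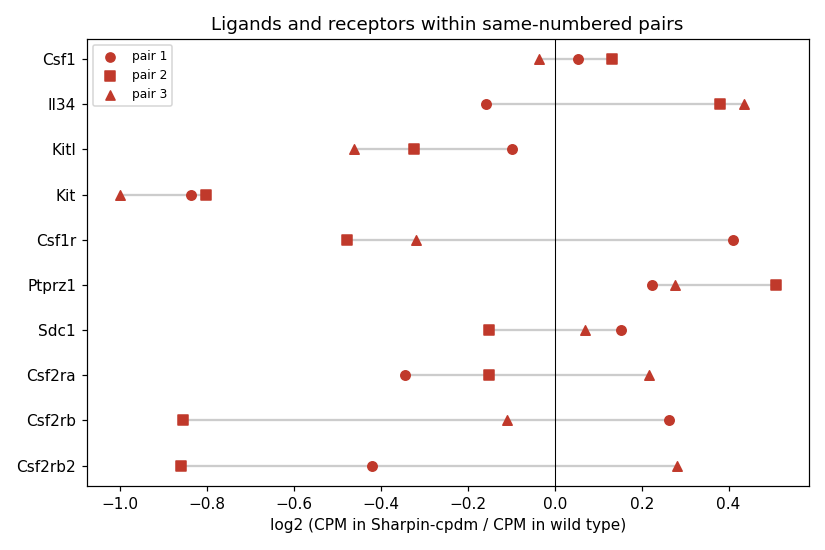
Log2 ratio of CPM in Sharpin-cpdm over wild type within each same-numbered pair (1 symbol per pair, grey lines spanning the range) for the 4 tested members and 6 receptors or binding partners. All 3 Kit points lie between -1.0 and -0.80, the Csf1 points between -0.04 and 0.13, and the points of Csf1r on both sides of 0.

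KIT is known from cell types other than fibroblasts, so markers of such cells were read in the same libraries. Mast cell markers summed over 10 genes came to 10.1, 9.42 and 22.6 CPM in the Sharpin-cpdm cultures, against 13.3, 15.1 and 33.5 CPM in the wild-type cultures, so that like Kit they were highest in pair 3 and lower in the Sharpin-cpdm library of every pair. The ratios of these sums were 0.757, 0.623 and 0.673 in pairs 1 to 3, nearer to 1 than those of Kit. All 5 tested mast cell markers had a log2 fold change below 0, with a median of -0.72. In the blocked edgeR test 0 passed (3 at an unadjusted p under 0.05, beside 17.3% of all tested genes), and 0 passed in DESeq2 with the block. Cpa3, a mast cell carboxypeptidase, had 0.811, 0.580 and 4.22 CPM in the Sharpin-cpdm cultures, against 1.03, 1.41 and 6.47 CPM in the wild-type cultures, and Ms4a2, the beta chain of the IgE receptor, had at most 0.0737 CPM in any library. Cpa3 and Ms4a2 were thus the smaller part of every sum, and the larger part came from other genes of the list, whose values are not reported here. None of the 10 was at 0 in all 6 libraries. Their part in the Kit result was not tested.

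Endothelial markers, like Kit and the mast cell markers, were highest in pair 3 and summed to less in the Sharpin-cpdm library of every pair. Of 15 markers 13 fell and 0 rose, beside 2.11% of all tested genes that fell. All 15 had an unadjusted p under 0.05 in the blocked edgeR test, beside 17.3% of all tested genes. The median log2 fold change was -0.79, beside -0.0016 for all 13442 tested genes. The endothelial sums were 428, 547 and 686 CPM in the Sharpin-cpdm cultures, against 614, 1020 and 1177 CPM in the wild-type cultures, and no marker was at 0. The ratios within pairs were 0.697, 0.536 and 0.583. Of 7 tested pericyte markers 3 fell (Mcam, Abcc9 and Notch3) and 5 had an unadjusted p under 0.05 in that test, beside the same shares. Pericyte sums lay between 748 and 1001 CPM in Sharpin-cpdm, against between 876 and 1212 CPM in wild type. Adipocyte markers summed over 8 genes came to 29.4, 40.7 and 49.5 CPM in the Sharpin-cpdm cultures, against 46.4, 78.4 and 95.8 CPM in the wild-type cultures. This sum too was highest in pair 3, and it was lower in the Sharpin-cpdm library of every pair, with ratios of 0.634, 0.519 and 0.517. Most of that sum was Fabp4, a fatty acid carrier of adipocytes that capillary endothelium also makes, which fell by 0.93 ± 0.06 on the log2 scale (adjusted p 0.00488, blocked edgeR test), while Adipoq and Plin1 had at most 0.201 CPM in any library and Lep and Retn were at 0. The part of these 3 lists in the Kit and Kitl values was not tested.

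Of 10 tested mammary epithelial markers 9 had a blocked log2 fold change below 0 and 1 above it, with a median of -0.34, and 0 were called by edgeR (1 at an unadjusted p under 0.05) or DESeq2 with the block. All 12 listed genes summed to 473, 421 and 227 CPM in the Sharpin-cpdm cultures, against 339, 616 and 411 CPM in the wild-type cultures, with ratios of 1.40, 0.683 and 0.552 in pairs 1 to 3, so that the sums went both ways. They were lowest in number 3 among Sharpin-cpdm cultures and in number 1 among wild-type cultures, and Kit was highest in number 3 of both. The part of epithelial cells in the Kit values was not tested. Csn2, the milk protein beta-casein, was at 0 throughout. Of 6 melanocyte markers Tyr and Tyrp1 were at 0 in all libraries and Dct had at most 0.128 CPM, while Sox10, which Schwann cells share, made up most of a sum between 27.3 and 31.2 CPM in Sharpin-cpdm, against between 20.2 and 29.6 CPM in wild type. Of the 3 tested melanocyte markers 0 were called by edgeR (2 at an unadjusted p under 0.05) or DESeq2 with the block. Fibroblast markers summed to between 65300 and 80590 CPM in Sharpin-cpdm, against between 68000 and 88770 CPM in wild type, and all 12 were expressed, as the label of the cultures says. Of the 12, Dcn, Lum, Fap and Fbln1 fell and 0 rose, beside 2.11% of all tested genes that fell. In the blocked edgeR test 9 of the 12 had an unadjusted p under 0.05, beside 17.3% of all tested genes. The median log2 fold change of the fibroblast markers was -0.23. Schwann cell markers had sums between 169 and 260 CPM in Sharpin-cpdm, against between 135 and 344 CPM in wild type, and T and innate lymphoid cell markers had sums of at most 10.2 CPM in Sharpin-cpdm, against 10.4 CPM in wild type, with 0 of 3 called by edgeR (0 at an unadjusted p under 0.05) or DESeq2 with the block.

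**Figure D4:**
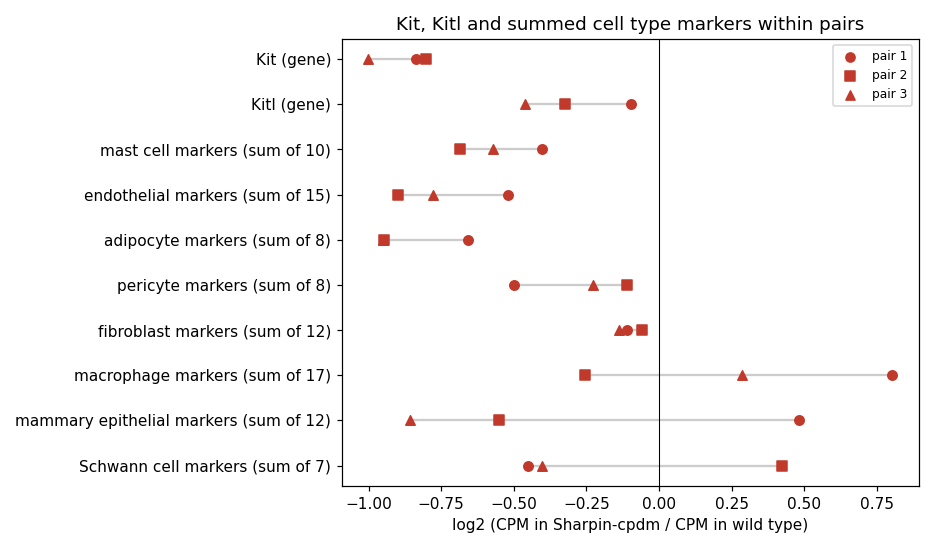
Log2 ratio of CPM in Sharpin-cpdm over wild type within each same-numbered pair (1 symbol per pair) for Kit, Kitl and the summed CPM of 8 lists of cell type markers. Kit, Kitl, mast cell, endothelial, adipocyte, pericyte and fibroblast values lie below 0 in all 3 pairs, whereas macrophage, epithelial and Schwann cell sums lie on both sides of 0.

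Among 32 genes that carry or damp signals from these receptors, Mitf and Inpp5d fell and Dok1 rose, beside 2.51% of all tested genes called. In the blocked edgeR test 10 of the 32 had an unadjusted p under 0.05, beside 17.3% of all tested genes. The median log2 fold change over the list was -0.06. Mitf, a transcription factor that acts downstream of KIT in melanocytes and mast cells, had 15.6, 8.48 and 31.5 CPM in the Sharpin-cpdm cultures, against 23.0, 13.4 and 48.3 CPM in the wild-type cultures. Like Kit it was highest in pair 3 and lower in the Sharpin-cpdm library of each pair, with a log2 fold change of -0.63 ± 0.07 (adjusted p 0.0138, blocked edgeR test). Inpp5d, the phosphatase SHIP1 that restrains KIT and CSF1R signals in blood cells, had a log2 fold change of -0.67 ± 0.12 (adjusted p 0.0452, blocked edgeR test; not called by DESeq2 with the block). Dok1, an adaptor that damps receptor tyrosine kinase signals, averaged 99.6 ± 16.1 CPM in Sharpin-cpdm, against 77.1 ± 15.0 CPM in wild type, giving a log2 fold change of 0.36 ± 0.06 (adjusted p 0.0446, blocked edgeR test).

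CSF1 and stem cell factor are made as membrane proteins and cut loose by proteases, and of 11 such proteases and their regulators only Mmp9 was called by edgeR with the block, while DESeq2 with the block called Timp3 as well. In the blocked edgeR test 5 of the 11 had an unadjusted p under 0.05, beside 17.3% of all tested genes, while 2.51% of all tested genes were called. Mmp9, a gelatinase that releases soluble stem cell factor in mouse bone marrow, had 78.0, 156 and 47.3 CPM in the Sharpin-cpdm cultures, against 47.6, 93.6 and 33.3 CPM in the wild-type cultures. It was the higher one in the Sharpin-cpdm library of every pair and rose by 0.65 ± 0.07 on the log2 scale (adjusted p 0.0106, blocked edgeR test). Adam17, a sheddase of both ligands, had 105, 90.7 and 117 CPM in the Sharpin-cpdm cultures and 107, 96.3 and 125 CPM in the wild-type cultures, a log2 fold change of -0.08 ± 0.05 that did not pass. Adam17 was named after its values were seen.

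The transcripts of Csf2 and Csf3 are known to be short-lived and to be induced together with other inflammatory factors. A list of 13 genes around transcript stability held 1 called gene, Nfkbiz, and none of the RNA-binding proteins on it was called by edgeR or DESeq2 with the block. In the blocked edgeR test 1 of the 13 had an unadjusted p under 0.05, beside 17.3% of all tested genes, while 2.51% of all tested genes were called. Nfkbiz encodes a nuclear cofactor of NF-kappaB that acts in transcription and does not itself set transcript stability, and it fell by 0.53 ± 0.07 on the log2 scale (adjusted p 0.0250, blocked edgeR test). Of 18 inflammatory factors usually made beside Csf2 and Csf3, 12 were tested, the neutrophil chemokine gene Cxcl5 fell and 0 rose. Of those 12, 5 had an unadjusted p under 0.05 in the blocked edgeR test, beside the same 17.3%. Cxcl5 had 14.9, 4.06 and 29.5 CPM in the Sharpin-cpdm cultures, against 25.9, 10.2 and 73.4 CPM in the wild-type cultures, with a log2 fold change of -1.16 ± 0.12 (adjusted p 0.0110, blocked edgeR test). The list's median log2 fold change was 0.03. Cxcl3, a related chemokine gene removed by the low-count filter, had 1, 1 and 11 counts in the Sharpin-cpdm cultures, against 8, 7 and 68 counts in the wild-type cultures. Fitted with the block and no filter, it had a log2 fold change of -2.71 ± 0.41 (adjusted p 0.0120, edgeR), with 13 counts in all Sharpin-cpdm libraries against 83 in wild type, and it was named after its values were seen. Of 10 related blood cell growth factors and receptors 3 were tested and 0 were called by edgeR or DESeq2 with the block (0 at an unadjusted p under 0.05), among them Il3ra at 44.6 ± 3.51 CPM in Sharpin-cpdm, against 51.1 ± 9.14 CPM in wild type, and Flt3l at 4.38 ± 0.938 CPM in Sharpin-cpdm, against 5.15 ± 1.8 CPM in wild type. Il3, Il5ra and Epo were at 0 in all 6 libraries.

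The genes whose log2 CPM ran most like each member over the 6 libraries were picked by Pearson's r from 10301 genes with a mean of at least 5 CPM, as a description, since libraries of a pair share their pair and the highest of so many values is high by selection. For Kit these were Mertk, Bmp2 and Madd, with r between 0.993 and 0.996. Bmp2, a bone morphogenetic protein, had 6.12, 6.31 and 16.7 CPM in the Sharpin-cpdm cultures, against 12.8, 11.3 and 33.0 CPM in the wild-type cultures, and a log2 fold change of -0.98 ± 0.10 (adjusted p 0.0101, blocked edgeR test). Mertk, a receptor kinase for dying cells that is also listed here among the macrophage markers, had -0.58 ± 0.12 and Madd -0.24 ± 0.11, and neither passed. For Kitl they were Prkar2b, Inhbb and Mall, with r of 0.997, 0.993 and 0.991 and blocked log2 fold changes of -0.26, -0.40 and -0.61 that did not pass. For Csf1 they were Ost4, Bcap29 and Magoh, with r of 0.998, 0.997 and 0.997, each highest in library 2 of both genotypes. For Il34 they were Hspg2, Cdk2ap1 and Mllt1, with r between 0.983 and 0.986.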

How the data were processed

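For each library the authors deposited raw counts as whole reads for 23337 gene symbols. Another 5 rows of counting summaries, 48.8% to 51.2% of all entries and chiefly reads without a unique alignment, stayed out of totals and tests. The build was mm10 and the tools were HTSeq 0.5.4p3, TopHat2 2.0.10 and bcl2fastq 1.8.4, per the submitters' processing notes; the annotation, strand and overlap settings are not given in the sources used here. Reads were therefore not assigned by strand with any certainty, and the TruSeq v2 protocol named in the labels does not keep it.

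Counts were tested in R 4.3.3 with edgeR 4.0.16 (filterByExpr, TMM factors, glmQLFit and glmQLFTest, two-sided, Benjamini-Hochberg over 13442 genes, threshold 0.05), genotype alone as the main fit, and checked on simulated data. DESeq2 1.42.0, limma-voom (limma 3.58.1), RLE factors, no TMM factors, no filter and leaving out libraries or pairs were alternatives. An SE is the log2 fold change over the root of its F statistic. Printed CPM use gene totals without TMM, log2 CPM has a prior count of 2, and exon lengths come from GENCODE M21. Promoter windows are RefSeq's (GRCm38.p6), and 4 of the 6 genes matched by symbol.

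The groups share replicate numbers 1 to 3, whose meaning the labels do not give. Deviations from the group means, correlated across genes (genes are not independent replicates), gave 0.457, 0.809 and 0.737 for same-numbered libraries and between -0.691 and 0.00677 for the others, so libraries of a number were treated as pairs, which rests on the data. Deviations within a group cancel out, so positive values for same-numbered libraries push the others down, and the gap between them is partly built in. Libraries of a group are separate pools of animals. Without the block, p-values measure the spread between pools, and with it they measure the spread of the differences within pairs. No 2 libraries of a group agreed within sampling noise (chi-square per degree of freedom between 16.9 and 85.2).

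The 6 genes and the 17 other lists were chosen with earlier results of these data known. The genes named are the 6 members, Sharpin, all listed receptors, from each other pathway list the members called with the block or else the 2 most abundant, and the 3 genes most like each member with a mean of at least 5 CPM. Marker genes, Adam17, Cxcl3, Timp3 and genes at 0 were named after their values were seen, and results for some listed genes are not reported here.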

Additional observations from a re-analysis of the deposited data

How the results depend on the processing

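Kit stayed negative in all 17 alternatives, from -1.39 to -0.35 on the log2 scale. It passed with the replicate block at -0.91, with the block and no low-count filter at -0.90, and in DESeq2 with the block at -0.90 (adjusted p 1.79e-06), and the blocked fits with a pair left out gave -0.94 without pair 1 and -0.96 without pair 2, past the threshold, and -0.82 without pair 3, not past it. Kitl stayed negative, from -0.52 to -0.15, and passed in 1 alternative, the block without pair 1, at -0.41. The block changed no other call among the 6 genes. Csf1 reversed sign in some alternatives and passed nowhere. Leaving out single libraries gave between -0.31 ± 0.27 (Sharpin-cpdm library 2 out) and 0.37 ± 0.32 (wild-type library 2 out). Leaving out pairs with the block gave -0.015 (pair 2 out) to 0.10. Il34 stayed between 0.07 and 0.39 and passed nowhere. Calls over all genes numbered 0 in the main fit and in 10 alternatives, 337 with the replicate block, 502 with the block and no low-count filter (chosen after seeing the data, so that Csf2 and Csf3 had a blocked value), 10 in DESeq2 and 341 in DESeq2 with the block, and 653, 128 and 44 with the block and without pair 1, 2 or 3. The causes were not tested. Depth limits Csf2 and Csf3, at 16 and 30 counts in all, and not Csf1, Kitl or Kit.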
